A study of Sus scrofa with 12 samples.

Results

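Most of the genes described here encode the machinery that takes newly made proteins into the endoplasmic reticulum (ER) and carries them on to the Golgi. All were measured in porcine aortic valvular interstitial cells. They were chosen by gene symbol: the signal recognition particle (SRP) and its receptor, the SEC genes, the TRAP proteins (SSR1 to SSR4), the signal peptidase, the oligosaccharyltransferase, the COPI coat, the ARF GTPases, SAR1, the TMED proteins, the KDEL receptors and the LMAN lectins. The symbols also brought in ARF6, SEC14L1 and SEC14L2, which are not part of the classical ER to Golgi machinery and are counted with the rest. SEC24D and KDELR2 were left out and are given at the end as neighbours. The rule matched 92 probe sets of 59 genes. Of these, 87 probe sets of 58 genes had a log2 value over 4 in at least 3 of the 12 arrays and were tested, among 17638 probe sets tested and 6014 genes with a single symbol. The 5 untested probe sets were 1 each of SEC61G, TMED5, SPCS1 and LMAN2, which other probe sets covered, and the only probe set of SPCS2, a signal peptidase subunit. SPCS2 lay just outside the limit, with a third-highest value of 3.88, and the dimmest probe set of TMED7 just inside it, with values over log2 4 in 4 arrays.

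Proteins meant for the ER, the Golgi, the cell surface or the outside carry a signal peptide that the SRP recognises on the ribosome and brings to its receptor on the ER membrane. They pass through the SEC61 channel, lose the signal peptide and receive N-glycans, and COPII vesicles then carry them towards the Golgi, while COPI vesicles bring escaped ER proteins and cargo receptors back. Valvular interstitial cells are the fibroblast-like cells of the valve leaflet and secrete its collagens and proteoglycans, so this traffic serves matrix production, and SEC23A is known from human and fish mutants for its role in collagen export.

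The 12 Affymetrix arrays formed 4 groups of 3 biological replicates, all of cells released from adult pig aortic valves with collagenase II. Cells that had been passaged 2 times (P2) were grown on tissue culture polystyrene in low-serum medium, untreated or given 5 ng/ml of porcine TGF-β1 during 8 h or 24 h, and all P2 cells were collected after the same 3 days of culture. P0 cells were taken freshly isolated, without culture or treatment. P2 untreated cells therefore differed from P0 cells in passage, plastic, medium and time together, and in any change in the kinds of cell present, and these cannot be told apart. In such bulk RNA, fewer cells of a type and less RNA per cell cannot be told apart either.

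The deposited values were log2 expression values, used as given. On each array 16569 to 17255 probe sets exceeded log2 4, and arrays of the same group correlated at 0.982 to 0.994. Of the 13 valve interstitial or fibroblast markers measured, 1 rose and 7 fell in P2 untreated cells against P0 cells, and their summed linear level lay between 120071 and 133741 in P2 untreated arrays and between 182908 and 189196 in P0 arrays. Among them the filament gene VIM averaged 15.57 in P2 untreated and 15.62 in P0 arrays, and the proteoglycan gene DCN 13.34 and 14.98. All 6 markers of activated cells (myofibroblasts), among them ACTA2, rose in the same comparison, with a median log2 fold change of 2.76 and a sum of 132500 to 136091 in P2 untreated arrays and 22129 to 32910 in P0 arrays. Of 13 macrophage markers, 12 fell in P2 untreated cells against P0 cells, and their summed linear level lay between 2581 and 4753 in P2 untreated arrays and between 15715 and 23357 in P0 arrays. The 14 endothelial markers summed to 1231 to 6246 in P2 untreated arrays and 3447 to 4456 in P0 arrays, with 0 called higher and 3 lower. P2 arrays that carried the same replicate number resembled each other, with correlations of 0.348 to 0.679 after group means were removed, so calls are also given with replicate number as a block in the 9 P2 arrays where this changes them. The 3 P2 arrays numbered 3 had the lowest mean log2 level of the endothelial markers in each P2 group. They also had the highest summed linear level of the 3 muscle markers measured. This was 483 against 106 and 83.4 in untreated arrays, 249 against 79.7 and 69.3 at 8 h, and 73.4 against 57.0 and 61.7 at 24 h. Of these muscle markers 2 rose and 0 fell in P2 untreated cells against P0 cells.

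Across the whole set, the levels of the 58 genes were ordered by group. With each gene set to its own mean over the 12 arrays, the median deviation of the 58 genes lay between -0.06 and -0.02 in the 3 untreated P2 arrays. It lay between 0.10 and 0.18 in the 8 h arrays and between 0.17 and 0.27 in the 24 h arrays. The 3 P0 arrays were lowest, between -0.34 and -0.22. Only the 8 h and 24 h arrays overlapped on this measure, which was not taken over all genes. For the low place of P0 the nearest figure is the median log2 fold change in P2 untreated against P0 cells. It was 0.21 for the 58 genes, against 0.20 for all genes with a single symbol and 0.07 for all probe sets tested. The low place is thus not shown to be particular to these genes.

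The first comparison set P2 untreated cells against P0 cells. Below, the words in culture stand for this comparison, with all the differences between the 2 groups given above. The secretory genes moved in both directions: 27 of 58 rose and 10 fell in P2 untreated cells against P0 cells, where a call is an adjusted p under 0.05 in the limma fit of all probe sets. Among all probe sets tested, 33.6% were called higher and 25.8% lower, and the total share of members called, 63.8%, was close to the 66.3% of all genes with a single symbol. The median log2 fold change of the 58 genes was 0.21, against 0.20 for all such genes and 0.07 for all probe sets tested. The largest rise was 3.12-fold, in SSR4, and the largest fall 1.90-fold, in COPG2. In the same comparison the myofibroblast markers rose and the macrophage and most fibroblast markers fell, as given above, and their part in these values was not tested.

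Treatment with TGF-β1, the cytokine known for driving fibroblasts to make matrix, gave smaller changes, most of them on the higher side. At 8 h, 6 of the 58 genes rose and 0 fell against untreated P2 cells, where 2.53% of all probe sets were called higher and 2.53% lower. At 24 h, 10 rose and 0 fell, where 4.27% of all probe sets were called higher and 4.22% lower. The median log2 fold change of the 58 genes was 0.19 at 8 h and 0.27 at 24 h, against -0.01 and 0.01 for all probe sets. Counting genes without regard to calls, 47 of 58 had a higher mean than untreated at 8 h and 51 at 24 h. Of all 17638 probe sets, 8608 were higher at 8 h and 9031 at 24 h. Of the 6014 genes with a single symbol, 2852 and 2889 were. Both comparisons share the untreated arrays. The 58 genes also had higher array medians (10.77 to 11.49) than all probe sets tested (7.11 to 7.31). Their median SE was 0.130, against 0.159 for all probe sets and 0.145 for genes with a single symbol. The part of level and SE in the shares called was not tested. The genes called at either time were 12: STT3B, SRPRB, SEC23A and SSR3 at both, SEC23IP and SRP54 at 8 h, and SEC13, COPG1, RPN1, COPA, SRPRA and ARF4 at 24 h.

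These counts depended on the fit and on single arrays. With replicate number as a block in the 9 P2 arrays, 14 genes rose and 0 fell at 8 h, where 5.7% of all probe sets were called higher and 6.77% lower. In the same fit 24 rose and 1, COPG2, fell at 24 h, where 9.77% were called higher and 10.2% lower, and every gene called without the block was called again. Without the block, leaving out 8 h replicate 1 or 2, or untreated replicate 1 or 3, left 1 gene called at 8 h. Leaving out 8 h replicate 3 left 2, and untreated replicate 2 left 4. At 24 h, 5 genes were called without 24 h replicate 1, 5 without untreated replicate 1, 6 without untreated replicate 2 and 4 without untreated replicate 3. The 8 h call that held with each array left out in turn was that of SEC23IP. The 24 h calls that did so were those of STT3B, SRPRB, SEC23A and SSR3. The calls of SEC23A and SSR3 at 8 h and of SRPRA at 24 h were lost in all 6 such fits. Those of SRPRB and SRP54 at 8 h and of ARF4, COPG1 and RPN1 at 24 h were lost in 5 of the 6. Within same-numbered arrays, 36 of 58 genes were higher at 8 h than untreated in all 3 pairs and 40 at 24 h, against 25.8% and 24.1% of all probe sets.

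Markers of other cells and of activation were read in the same comparisons. The 13 macrophage markers summed to 2378 to 4765 in 8 h arrays and 2170 to 4198 in 24 h arrays, against 2581 to 4753 in untreated P2 arrays, and 1 of them, CD14, fell at both times. The 14 endothelial markers summed to 1654 to 5387 in 8 h arrays and 1808 to 3939 in 24 h arrays, against 1231 to 6246 in untreated P2 arrays, and 1 of them, ERG, rose at both times. With the block, 1 macrophage marker fell at 8 h and 3 at 24 h, and of the endothelial markers 1 rose and 2 fell at 8 h and 1 rose and 4 fell at 24 h. Of the 6 myofibroblast markers 0 were called at either time, and 1 fell at 24 h with the block. Of the 13 fibroblast markers 0 were called at 8 h, with or without the block, while at 24 h 1 rose and 2 fell, and 2 rose and 5 fell with the block. Of the 3 muscle markers 0 were called at either time, and 1 fell at 24 h with the block. The part of these markers in the values of the secretory genes was not tested. The P2 arrays numbered 3 had the lowest endothelial and the highest muscle markers. With these arrays left out, 1 secretory gene was called at 8 h and 3 at 24 h.

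**Figure D1:**
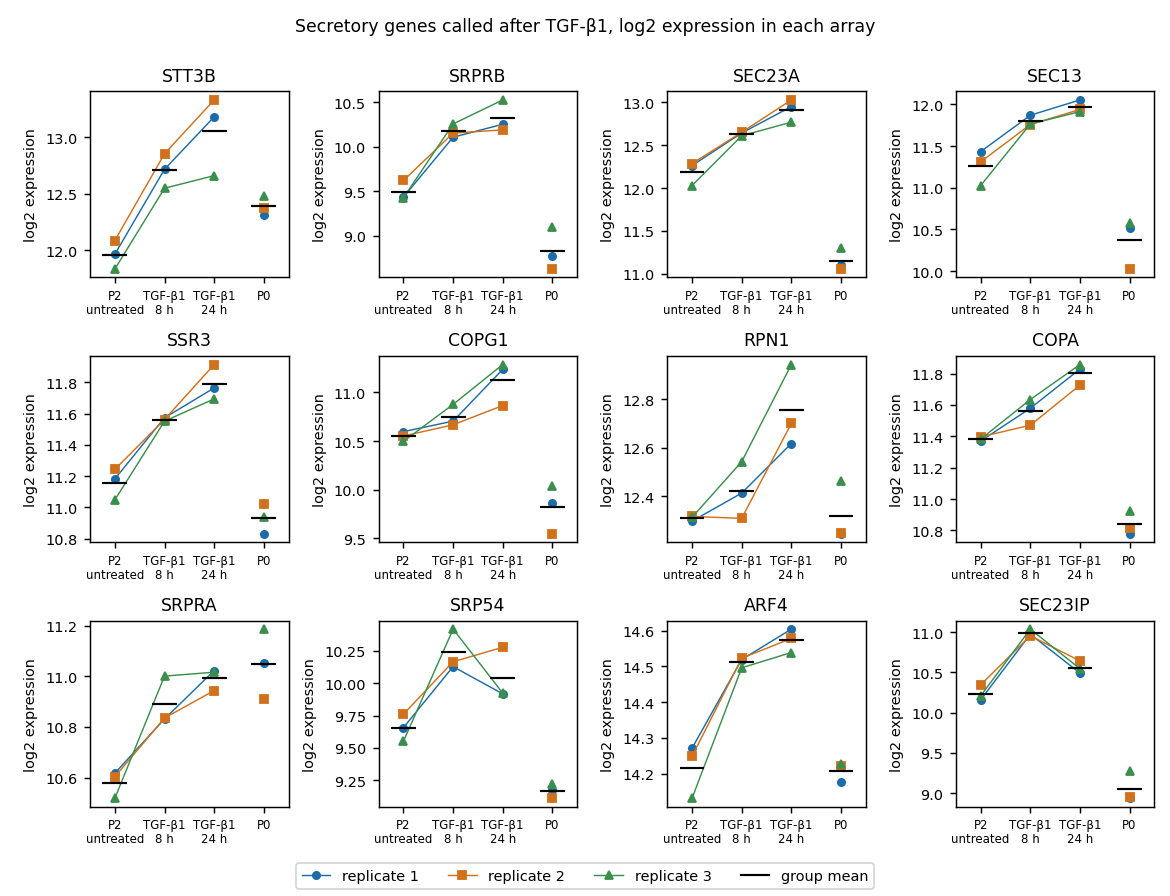
Log2 expression (y axis) of the 12 genes called after TGF-β1, in each array of P2 untreated, TGF-β1 8 h, TGF-β1 24 h and P0 cells (x axis). Points are arrays, lines join P2 arrays of the same replicate number and black bars are group means of 3 arrays. All lines climb between untreated and 8 h except that of RPN1 replicate 2, and SEC23IP is lower at 24 h than at 8 h in all 3 pairs.

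The signal recognition particle and its receptor held 8 of the genes, and all 8 were called in culture, 7 up and SRPRA down, with a median log2 fold change of 0.60. The share called among all genes with a single symbol was 66.3%, with 42.1% higher and 24.2% lower, and the culture counts of every role group stand against those shares. The counts with TGF-β1 stand against 2.74% higher and 2.84% lower at 8 h and 4.42% higher and 5.67% lower at 24 h. SRP9, which with SRP14 forms the part of the particle that slows translation, read 10.49, 10.68 and 10.64 in P2 untreated arrays and 9.33, 9.29 and 9.21 in P0 arrays. The groups did not overlap, and the rise was 2.51-fold (log2 fold change 1.33 ± 0.104 SE, adjusted p = 5.07e-07). SRP72, which with SRP68 binds the SRP RNA, read 11.51, 11.55 and 11.39 in P2 untreated arrays and 10.24, 10.26 and 10.45 in P0 arrays (1.17 ± 0.0995, adjusted p = 9.36e-07). SRP19, needed for assembly of the particle, rose by a like amount (1.04 ± 0.128, adjusted p = 2.01e-05), and for both genes the groups were separate.

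The 3 members called with TGF-β1 were the GTPases of this step. SRPRB, the membrane-anchored β subunit of the SRP receptor, read 9.43, 9.62 and 9.43 in untreated P2 arrays, 10.11, 10.15 and 10.26 after 8 h and 10.25, 10.19 and 10.53 after 24 h. Every treated array lay above every untreated one. Its log2 fold change was 0.68 ± 0.140 at 8 h (adjusted p = 0.0180) and 0.83 ± 0.140 at 24 h (adjusted p = 0.00404). In P2 untreated against P0 cells it was 0.66 ± 0.140. SRPRA, the α subunit, read 10.62, 10.60 and 10.52 untreated, 10.83, 10.84 and 11.001 after 8 h and 11.02, 10.94 and 11.02 after 24 h. At 24 h it rose (0.41 ± 0.104, adjusted p = 0.0309), a call lost in all 6 fits that left out an array (adjusted p up to 0.114). At 8 h its log2 fold change was 0.31 (adjusted p = 0.128). Unlike the other 7 genes it fell in culture, by 0.47 ± 0.104 on the log2 scale (adjusted p = 0.00198), with P0 arrays at 11.05, 10.91 and 11.19, and the 24 h arrays lay inside the P0 range. This fall rests on its brightest probe set: the second, with a mean near log2 8.08, had a culture log2 fold change of 0.01 ± 0.132 (adjusted p = 0.938), while at 24 h it rose too (0.57, adjusted p = 0.0210). SRP54, the subunit that binds the signal peptide, read 9.66, 9.76 and 9.55 untreated, 10.13, 10.17 and 10.42 after 8 h and 9.92, 10.28 and 9.92 after 24 h. It rose at 8 h (0.58 ± 0.128, adjusted p = 0.0237), and at 24 h its log2 fold change was 0.38 (adjusted p = 0.0906). In the block fit SRP72 also rose at 8 h (adjusted p = 0.0440), as did SRP14 at 24 h, named after its values were seen (adjusted p = 0.0338).

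The translocon and TRAP group held 8 genes, of which 2 rose and 1 fell in culture. SSR4, the δ subunit of TRAP, the complex that sits beside the SEC61 channel and helps some signal peptides through, had the largest change of all 58 genes. It read 14.15, 14.11 and 13.92 in P2 untreated arrays and 12.44, 12.11 and 12.69 in P0 arrays, with no overlap (1.64 ± 0.144, adjusted p = 1.22e-06). With TGF-β1 its log2 fold changes were 0.02 at 8 h (adjusted p = 0.979) and 0.05 at 24 h (adjusted p = 0.901). SSR3, the γ subunit of the same complex, had a culture log2 fold change of 0.23 (adjusted p = 0.0775), and it rose with TGF-β1. It read 11.18, 11.24 and 11.05 untreated, 11.57, 11.56 and 11.55 after 8 h and 11.76, 11.91 and 11.69 after 24 h, so the 3 groups did not overlap. The log2 fold change was 0.40 ± 0.104 at 8 h (adjusted p = 0.0456) and 0.63 ± 0.104 at 24 h (adjusted p = 0.00355). SEC62, a partner of the channel for short and late-arriving proteins, fell in culture to a mean of 11.41 in P2 untreated cells, against 11.84 in P0 cells (-0.43 ± 0.133, adjusted p = 0.0149), a call lost without P2 untreated replicate 1 (adjusted p = 0.0522) or P0 replicate 2 (adjusted p = 0.0598). SEC61A1, the pore itself, had the largest uncalled change of the group at 24 h (0.59 ± 0.196, adjusted p = 0.0917), and the block fit called it (adjusted p = 0.0269).

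All 4 signal peptidase genes were called in culture, 3 up and 1 down, and 0 were called with TGF-β1, where 66.3% of all genes with a single symbol were called in culture, 5.59% at 8 h and 10.1% at 24 h. SPCS1, a small accessory subunit, read 12.93, 12.88 and 12.76 in P2 untreated arrays and 11.88, 11.79 and 11.92 in P0 arrays (0.99 ± 0.111, adjusted p = 9.05e-06). SPCS3, a subunit needed for activity, read 10.85, 10.86 and 10.86 in P2 untreated arrays and 11.52, 11.04 and 11.51 in P0 arrays (-0.50 ± 0.130, adjusted p = 0.00538). The groups of either gene did not overlap, and P0 replicate 2 of SPCS3 lay nearest to the P2 arrays. Both catalytic subunits, SEC11A (0.40 ± 0.125) and SEC11C (0.59 ± 0.152), were higher in culture and are named after their values were seen. SPCS3 had the largest change of the group with TGF-β1, 0.32 ± 0.130 at 8 h (adjusted p = 0.212), called with the block (adjusted p = 0.0353), and 0.26 at 24 h (adjusted p = 0.265).

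The oligosaccharyltransferase, which moves the N-glycan onto the protein, held the largest 24 h rise. Of the 4 genes counted in this group, 2 were called at that time. STT3B, the catalytic subunit known for glycosylating sites that were missed during translocation, read 11.97, 12.09 and 11.83 in untreated P2 arrays. It read 12.72, 12.85 and 12.55 after 8 h and 13.18, 13.33 and 12.66 after 24 h, with all treated arrays above all untreated ones. The rise was 1.67-fold at 8 h (0.74 ± 0.163, adjusted p = 0.0230) and 2.14-fold at 24 h (1.09 ± 0.163, adjusted p = 0.00207). Replicate 3 rose least at 24 h, and without it the 24 h log2 fold change was 1.29. In culture STT3B had fallen by 0.43 ± 0.163 on the log2 scale (adjusted p = 0.0393), with P0 arrays at 12.31, 12.38 and 12.48, all below the treated arrays.

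STT3A, the catalytic subunit that works on the growing chain at the channel, rose in culture, with 10.06, 9.89 and 9.92 in P2 untreated arrays and 9.06, 9.11 and 9.64 in P0 arrays (0.69 ± 0.145, adjusted p = 0.00137). Its 24 h log2 fold change of 0.48 ± 0.145 missed the threshold (adjusted p = 0.0654) and was called in the block fit (adjusted p = 0.00945). RPN1, a subunit that holds substrates near the catalytic site, read 12.30, 12.32 and 12.31 untreated, 12.41, 12.31 and 12.54 after 8 h and 12.62, 12.70 and 12.94 after 24 h. It rose at 24 h (0.45 ± 0.117, adjusted p = 0.0378), its 8 h log2 fold change was 0.11 (adjusted p = 0.717), and its P0 arrays overlapped the untreated ones. With the block all 4 genes counted in this group, which does not hold every subunit, were called higher at 24 h. Among them was the small subunit DAD1 (adjusted p = 0.0295), named after its values were seen.

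The COPII coat, which buds vesicles from the ER, held 9 genes. In culture 4 rose and 2 fell, and with TGF-β1 2 rose at 8 h and 2 at 24 h, with a median log2 fold change of 0.43 and 0.37. SEC23A, the inner coat subunit that triggers GTP hydrolysis on SAR1, read 12.26, 12.29 and 12.03 untreated, 12.64, 12.65 and 12.61 after 8 h and 12.95, 13.03 and 12.77 after 24 h, with no overlap between the groups. It rose at 8 h (0.44 ± 0.116, adjusted p = 0.0499, which is at the threshold) and at 24 h (0.72 ± 0.116, adjusted p = 0.00322). It also rose 2.06-fold in culture (1.04 ± 0.116, adjusted p = 8.8e-06), with P0 arrays at 11.10, 11.05 and 11.30.

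SEC23IP, a protein that binds SEC23 at ER exit sites, had its highest level at 8 h, while SEC23A and SEC13 had theirs at 24 h. It read 10.16, 10.35 and 10.21 untreated, 10.98, 10.96 and 11.04 after 8 h and 10.49, 10.64 and 10.55 after 24 h, and no 2 of these groups overlapped. It rose at 8 h (0.75 ± 0.115, adjusted p = 0.00514), and its 24 h log2 fold change was 0.32 ± 0.115 (adjusted p = 0.113), called with the block (adjusted p = 0.0335). In culture it rose 2.27-fold (1.18 ± 0.115, adjusted p = 2.92e-06), with P0 arrays at 8.94, 8.95 and 9.28. SEC13, which with SEC31 builds the outer cage, read 11.43, 11.31 and 11.03 untreated, 11.87, 11.76 and 11.77 after 8 h and 12.05, 11.94 and 11.91 after 24 h. It rose at 24 h (0.71 ± 0.153, adjusted p = 0.0146) and in culture (0.88 ± 0.153, adjusted p = 0.000328), and at 8 h it missed the threshold (0.54, adjusted p = 0.0694) but was called with the block (adjusted p = 0.0113).

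SEC23B and SEC31B fell in culture, while SEC31A, the main partner of SEC13 in the cage, was not called (0.11 ± 0.130, adjusted p = 0.502). SEC23B, the close relative of SEC23A, read 9.18, 9.33 and 9.31 in P2 untreated arrays and 9.87, 9.51 and 10.00 in P0 arrays (-0.52 ± 0.158, adjusted p = 0.0137), and the call was lost without P0 replicate 3 (adjusted p = 0.0592). With TGF-β1 its log2 fold change was 0.56 at 8 h (adjusted p = 0.0664) and 0.53 at 24 h (adjusted p = 0.0632), both called with the block (adjusted p = 0.0136 and 0.0117). SEC31B, a relative of SEC31A, read 4.98, 4.98 and 4.86 in P2 untreated arrays and 5.59, 5.78 and 5.53 in P0 arrays (-0.69 ± 0.165, adjusted p = 0.00314), close to the 95th percentile of reporter controls at 4.58. SAR1A, the GTPase that starts the coat, was called with the block at 8 h (adjusted p = 0.0249) and at 24 h (adjusted p = 0.0182), and is named after its values were seen.

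The COPI coat and ARF group was the largest, with 12 genes, of which 5 rose and 3 fell in culture, 0 were called at 8 h and 3 rose at 24 h. COPZ1, the ζ subunit, read 10.48, 10.43 and 10.03 in P2 untreated arrays and 8.99, 8.92 and 9.19 in P0 arrays (1.28 ± 0.129, adjusted p = 3.88e-06). COPB1, the β subunit, averaged 12.05 ± 0.0840 in P2 untreated arrays and 10.84 ± 0.233 in P0 arrays (SD, n = 3 each), and it rose 2.32-fold (1.21 ± 0.123, adjusted p = 4.2e-06). COPG2, one of the γ subunits, went the other way, with 9.06, 8.96 and 9.21 in P2 untreated arrays and 9.83, 10.12 and 10.05 in P0 arrays (-0.92 ± 0.125, adjusted p = 4.55e-05). None of these 3 genes overlapped between the groups. ARF2, a class I ARF GTPase, also fell (-0.69 ± 0.270, adjusted p = 0.0441), but 5 of the 6 fits that left out an array lost this call, with adjusted p up to 0.147. At 8 h of TGF-β1 it had the largest change of the group (0.51 ± 0.270, adjusted p = 0.377), called with the block (adjusted p = 0.0280). The 8 h value without the block was 0.22 without 8 h replicate 3, the highest of the 8 h arrays.

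With TGF-β1 for 24 h the γ and α subunits of COPI rose. COPG1, the other γ subunit, read 10.60, 10.55 and 10.50 untreated, 10.70, 10.67 and 10.88 after 8 h and 11.24, 10.86 and 11.29 after 24 h (24 h log2 fold change 0.58 ± 0.148, adjusted p = 0.0323). COPA, the α subunit, read 11.37, 11.40 and 11.38 untreated, 11.58, 11.47 and 11.63 after 8 h and 11.83, 11.73 and 11.86 after 24 h (0.42 ± 0.0956, adjusted p = 0.0187). ARF4, a class II ARF, read 14.27, 14.25 and 14.13 untreated, 14.52, 14.52 and 14.50 after 8 h and 14.60, 14.58 and 14.54 after 24 h (0.36 ± 0.0894, adjusted p = 0.0302). In each of the 3 genes every 24 h array lay above every untreated array, and the smallest rise was 1.28-fold. COPG2 had a log2 fold change of -0.36 at 8 h (adjusted p = 0.144) and -0.35 at 24 h (adjusted p = 0.113), and in the block fit it was the 1 member called lower at 24 h (adjusted p = 0.0471). COPA and COPG1 had risen in culture too, by 0.54 ± 0.0956 and 0.73 ± 0.148, while the P0 arrays of ARF4 overlapped the untreated ones.

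The p24 proteins of the TMED family, cargo receptors that cycle between ER and Golgi, held 6 genes. In culture 1 rose, TMED3, which read 11.05, 10.65 and 9.90 in P2 untreated arrays and 9.53, 9.14 and 9.77 in P0 arrays (1.05 ± 0.300, adjusted p = 0.00918). Its SE was the largest of the 58 genes, and the nearest arrays of both groups lay close together. With TGF-β1 0 of 6 were called at either time, although all 6 had a higher mean than untreated at 8 h and at 24 h. TMED5 had the largest 8 h change (0.29 ± 0.124, adjusted p = 0.246) and TMED3 the largest at 24 h (0.53 ± 0.300, adjusted p = 0.332), which was 0.22 without untreated replicate 3. With the block TMED3 and TMED5 were called at 24 h (adjusted p = 0.0179 and 0.0188), as was TMED2 (adjusted p = 0.0339), named after its values were seen.

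Among the 4 cargo and retrieval receptors, 2 rose and 1 fell in culture and 0 were called with TGF-β1. KDELR3, a receptor that returns escaped ER proteins, read 12.36, 12.55 and 12.38 in P2 untreated arrays and 11.60, 11.41 and 11.64 in P0 arrays (0.88 ± 0.148, adjusted p = 0.000274). LMAN2, a lectin that binds high-mannose glycans, read 10.33, 10.22 and 10.12 in P2 untreated arrays and 11.06, 11.02 and 11.20 in P0 arrays (-0.86 ± 0.0990, adjusted p = 1.13e-05). The groups of either gene were well separated. With TGF-β1 KDELR3 had a log2 fold change of 0.34 at 8 h (adjusted p = 0.256) and of 0.50 ± 0.148 at 24 h (adjusted p = 0.0585) on its brightest probe set, the second called with the block (adjusted p = 0.0216). LMAN2L, a relative of LMAN2, and COPB2, the β′ subunit of COPI, had means inside the range of the reporter controls in every group, so they carry little information. The 3 remaining SEC genes were SEC14L1 and SEC14L2, which encode lipid-binding proteins, and SEC22C, a SEC22 family protein of the ER. SEC14L2 rose in culture (0.83 ± 0.167, adjusted p = 0.000962), as did SEC22C, named after its values were seen (0.80 ± 0.231). With TGF-β1 0 of the 3 were called, and SEC14L2 had the largest change, 0.27 at 8 h and 0.35 at 24 h (adjusted p = 0.475 and 0.240), the second called with the block (adjusted p = 0.0260).

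**Figure D2:**
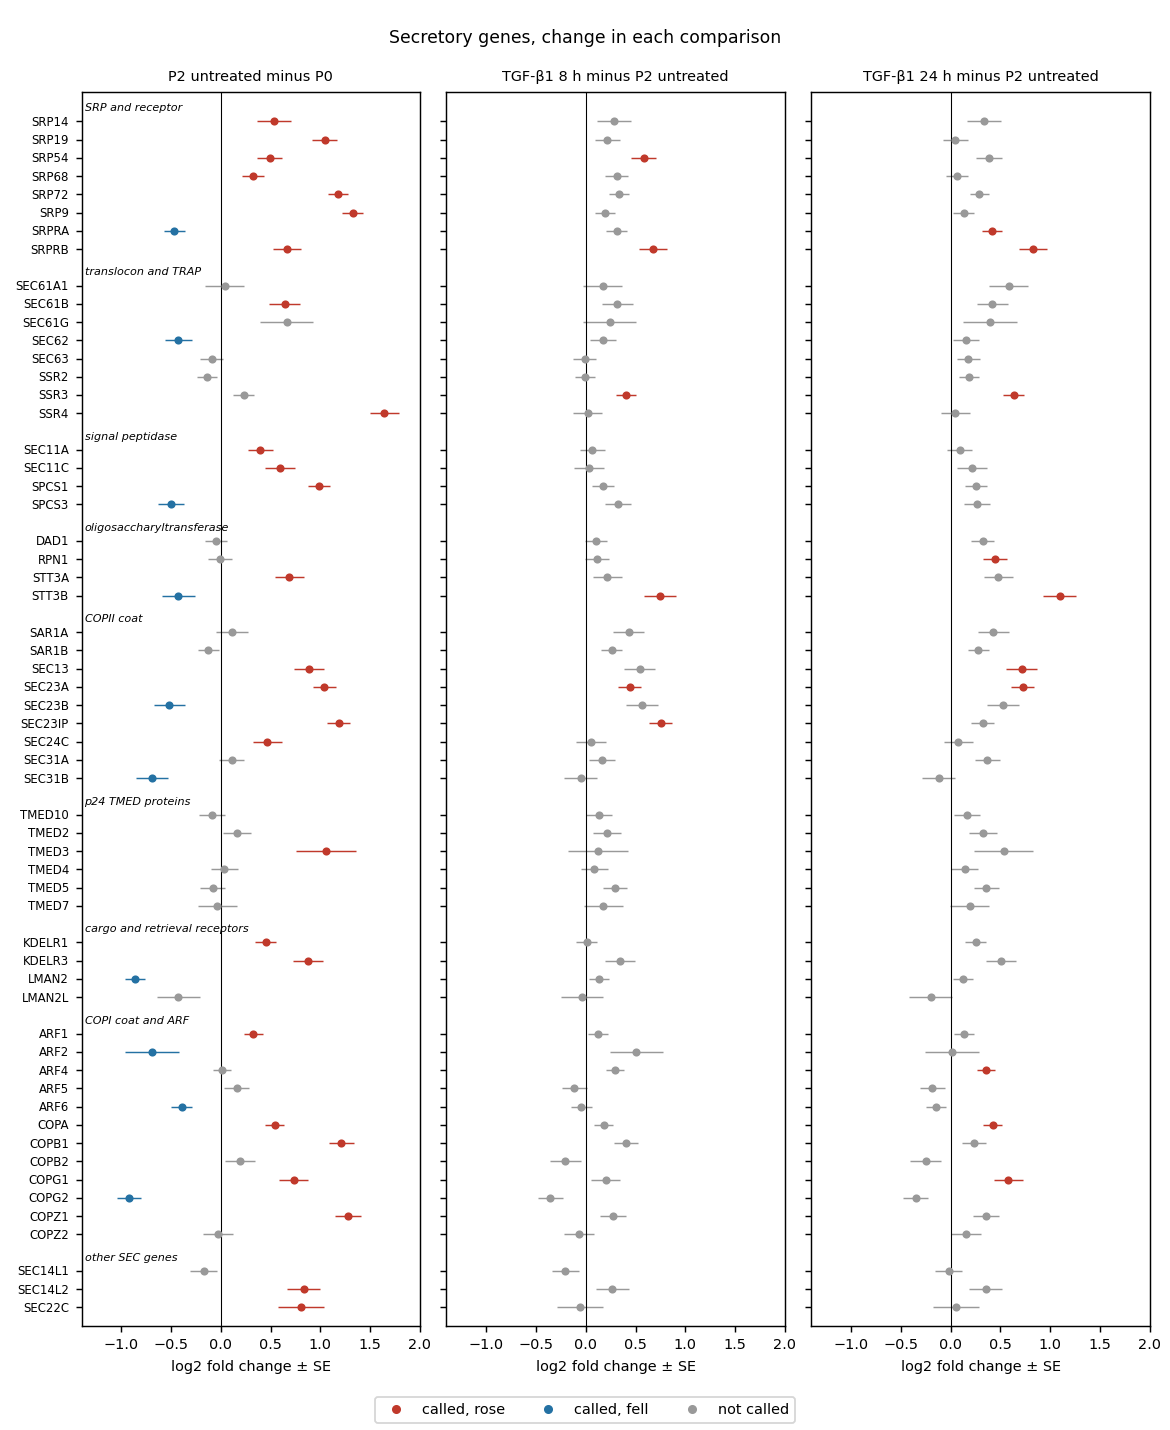
Log2 fold change with its SE (x axis) for each of the 58 genes (rows, by role) in P2 untreated against P0, TGF-β1 8 h against untreated and TGF-β1 24 h against untreated, 3 arrays a group. Red marks genes called higher, blue genes called lower and grey genes not called; red and blue are mixed in culture, while 6 genes at 8 h and 10 at 24 h are red and 0 are blue.

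**Figure D3:**
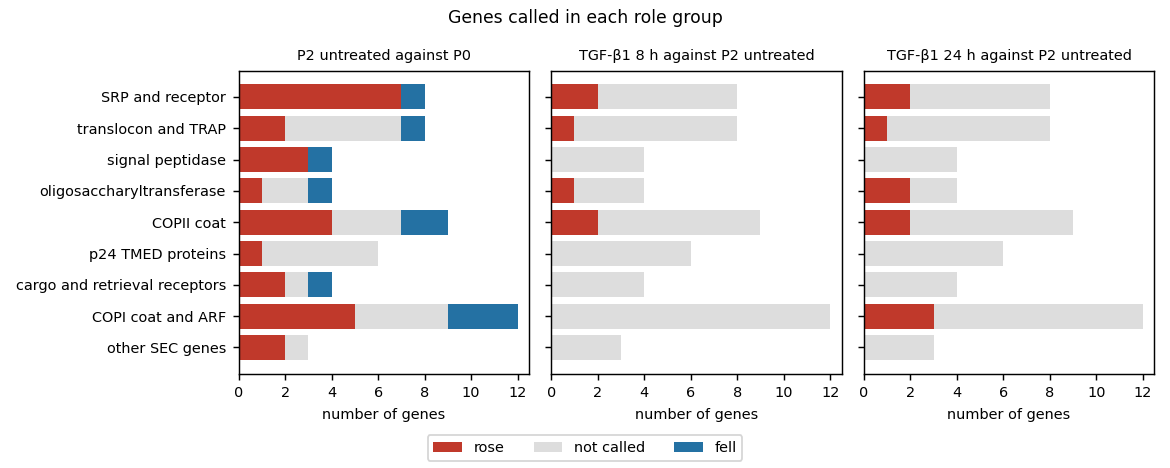
Number of genes (x axis) called higher (red), not called (grey) and called lower (blue) in each role group (rows) for the same 3 comparisons. All SRP and signal peptidase genes were called in culture, where 66.3% of all genes with a single symbol were, and the called genes with TGF-β1 fall in the SRP, translocon, oligosaccharyltransferase, COPII and, at 24 h, COPI groups.

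Several members exist as pairs of closely related genes, and in culture 4 of the pairs plotted were called in opposite directions. Among all genes with a single symbol 42.1% were called higher and 24.2% lower, and opposite calls in unrelated pairs were not counted. STT3A rose while STT3B fell, SEC23A rose while SEC23B fell, and COPG1 rose while COPG2 fell. ARF1 rose (0.33 ± 0.0998, adjusted p = 0.0135) while ARF2 fell, a call that 5 of 6 fits with an array left out lost, as given above. These 4 pairs were picked after their values were seen. Of the other pairs plotted, KDELR1 and KDELR3 both rose in culture, as did SEC11A and SEC11C. COPZ1 rose and SEC31B fell, while COPZ2, SEC31A, SAR1A and SAR1B were not called. The 24 h log2 fold changes with TGF-β1 of the 4 opposite pairs follow in the order given first. They were 0.48 and 1.09, 0.72 and 0.53, 0.58 and -0.35, and 0.14 and 0.01. Arrays measure each gene with its own probes, so levels were not compared between the genes of a pair, and probe sets of near-identical copies could share signal.

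**Figure D4:**
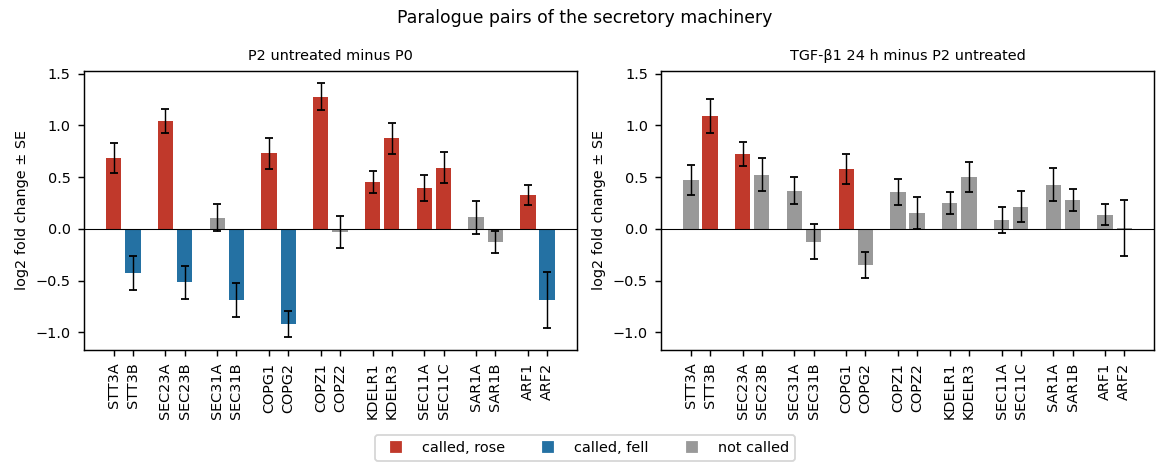
Log2 fold change (y axis, bars from 0, error bars SE, 3 arrays a group) of related genes of the machinery, side by side, in P2 untreated against P0 (left) and TGF-β1 24 h against P2 untreated (right). Red bars are called higher, blue called lower and grey not called. On the left the STT3, SEC23, COPG and ARF pairs have 1 red and 1 blue bar, and both bars of the KDELR and SEC11 pairs are red.

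The 24 h and 8 h arrays were also compared directly. Of the 58 genes 0 were called by limma, 8 had an unadjusted p under 0.05, and the median log2 difference was 0.06. Among all probe sets, 0.142% were called higher at 24 h and 0.0907% lower. COPA (0.24 ± 0.0956, adjusted p = 0.460), COPG1 (0.38 ± 0.148, adjusted p = 0.454) and RPN1 (0.33 ± 0.117, adjusted p = 0.390) had among the smallest p-values on the higher side. SEC23IP was lower at 24 h in all 3 same-numbered pairs (-0.43 ± 0.115, adjusted p = 0.228). With the block it was the 1 member called (-0.43 ± 0.0833, adjusted p = 0.0460), where 1.12% of all probe sets were called higher and 1.32% lower. Larger or like differences with wider errors were those of SEC61A1 (0.41 ± 0.196), TMED3 (0.41 ± 0.300), ARF2 (-0.50 ± 0.270) and STT3B (0.35 ± 0.163), none of them called. Single arrays moved them by over 1.5 times: the difference was 0.27 in SEC61A1 and 0.55 in STT3B without 24 h replicate 3, 0.19 in TMED3 without 24 h replicate 1 and -0.21 in ARF2 without 8 h replicate 3. In the other role groups the largest differences were 0.24 in KDELR1, 0.18 in SEC11C, 0.19 in SEC14L1 and -0.24 in SRP68, and that of SEC14L1 was 0.04 without 24 h replicate 3. A gene called at 24 h and not at 8 h is thus not shown to differ between the times.

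Of the 58 genes, 18 had more than 1 tested probe set, and 0 of them had probe sets called in opposite directions in any comparison. At 24 h, counting a gene as called if any of its probe sets was, 16 genes rose rather than 10. The 6 added were KDELR3, SAR1A, SEC31A, SRP72, STT3A and TMED4, named after their values were seen. For KDELR3 the second probe set gave a 24 h log2 fold change of 0.83 ± 0.171 (adjusted p = 0.0114) where the brightest gave 0.50. SRP72 on its dimmest probe set also rose at 8 h (0.72, adjusted p = 0.00665), where the brightest gave 0.34 (adjusted p = 0.0827). In culture the other probe sets added SAR1A and TMED7 to the rises and SAR1B, SEC63 and TMED5 to the falls. Dimmer probe sets of 5 genes called in culture were not called there. Those of ARF2 (-0.12, adjusted p = 0.598), SRP19 (-0.18, adjusted p = 0.329) and KDELR3 (0.10, adjusted p = 0.732) were far from the brightest, the last 2 at mean levels of 5.24 and 4.71.

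Both neighbours that the rule left out rose at 24 h. SEC24D, a COPII subunit that selects cargo, read 9.88, 10.06 and 9.87 untreated, 10.27, 10.51 and 10.63 after 8 h and 10.42, 10.55 and 10.52 after 24 h. Its log2 fold change was 0.53 ± 0.115 at 8 h (adjusted p = 0.0214) and 0.56 ± 0.115 at 24 h (adjusted p = 0.0108), and it was 0.65 in culture. KDELR2, the third KDEL receptor, rose at 24 h (0.52 ± 0.115, adjusted p = 0.0158), and at 8 h its log2 fold change was 0.36 (adjusted p = 0.102). These values are of its brightest probe set, and the other 2, of nearly the same level, were not called at 24 h (0.37, adjusted p = 0.105, and 0.51, adjusted p = 0.187).

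Of 76 further measured genes that had been listed as partners of the pathway, 41 rose and 5 fell in culture, with a median log2 fold change of 0.36. The total called, 60.5%, stands against 66.3% of all genes with a single symbol (42.1% higher and 24.2% lower, median 0.20). With TGF-β1, 7 rose and 1 fell at 8 h, where 2.74% of such genes were higher and 2.84% lower, and 9 rose and 1 fell at 24 h, where 4.42% were higher and 5.67% lower. With the block these counts were 13 and 1 at 8 h, against 5.7% and 6.77% of all probe sets, and 22 and 2 at 24 h, against 9.77% and 10.2%. In culture 9 of the 12 export factors rose and 0 fell, against the same 42.1% and 24.2%. Of the 29 entry and glycan transfer genes 14 rose and 3 fell. Of the 30 genes of tethers, SNAREs and the Golgi 14 rose and 1 fell, and of the 5 retrieval genes 4 rose and 1 fell. TRAPPC4, of the tethering complex that receives COPII vesicles, read 9.93, 9.90 and 9.73 in P2 untreated arrays and 7.06, 7.22 and 7.01 in P0 arrays (2.76 ± 0.127, adjusted p = 6.81e-09). YKT6, a SNARE that fuses them, read 11.12, 11.35 and 11.12 in P2 untreated arrays and 9.12, 8.64 and 9.18 in P0 arrays (2.21 ± 0.146, adjusted p = 1.2e-07). The largest falls were in KDELC1 (-1.59 ± 0.130) and ALG13 (-1.15 ± 0.105), a subunit of the enzyme that adds the second sugar of the N-glycan precursor. At 24 h the largest rises were again in YKT6 (0.89 ± 0.146, adjusted p = 0.00357) and in YIF1A, a membrane protein of the ER to Golgi route (0.89 ± 0.144, adjusted p = 0.00338). At 8 h they were in the golgin GOLGA5 (0.82 ± 0.150, adjusted p = 0.00987) and in BNIP1, a SNARE of the return route (0.81 ± 0.163, adjusted p = 0.0157). The 1 fall at both times was in ERGIC1, a membrane protein between ER and Golgi (-0.54 ± 0.124 at 8 h and -0.53 ± 0.124 at 24 h), which had risen in culture by 0.50.

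Of 8 listed regulators 3 were measured. CREB3L2, an ER membrane transcription factor known in mouse cartilage for switching on Sec23a, read 8.71, 9.11 and 8.85 in untreated P2 arrays, 9.86, 9.92 and 10.46 after 8 h and 9.74, 9.77 and 10.20 after 24 h. It rose at 8 h (1.19 ± 0.187, adjusted p = 0.00541) and at 24 h (1.01 ± 0.187, adjusted p = 0.00674), with no overlap with untreated arrays. XBP1, a factor of the unfolded protein response, averaged 12.24 in P2 untreated cells and 13.95 in P0 cells (-1.70 ± 0.0990, adjusted p = 4.71e-08), and ATF4, a factor of the stress response, fell by 0.68 on the log2 scale. Neither was called with TGF-β1 at either time.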

How the data were processed

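RNA of 12 cultures or isolates was hybridised to 1 Affymetrix porcine array each, with biotin-labelled cRNA, per the labels' protocols. The deposited values were log2 expression values per probe set. GCRMA was named, with no version, per the submitters' processing notes. Any batches are not given in the labels, and the number of arrays limits the precision (median SE of a log2 fold change 0.159). The 64 reporter controls were left out, and probe sets were named through the platform annotation (10069 with 1 symbol, 198 with several, 13732 with none). Group means were fitted to the 12 arrays with limma 3.58.1 in R 4.3.3, two-sided, with Benjamini-Hochberg adjustment over 17638 probe sets in each of 4 comparisons. For each gene the probe set of highest mean was used. Errors are limma SEs, and p-values measure only the spread between these arrays.

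Genes were named by this rule: in each comparison the 8 largest rises and 8 largest falls called without overlap (or, with no call, the 4 members of smallest p), the largest change in each role group, and each gene called with TGF-β1. The members, lists and tests were chosen with earlier results of these data known. Replicate numbers pair the P2 arrays by a check of the data: each of 9 same-numbered pairs correlated at 0.348 or more after group means were removed, against at most 0.0796 for other pairs, while P0 arrays showed -0.0916 to 0.0158. Alternatives covered filters, normalization, the arrays fitted, the replicate block, the probe set per gene, a fold limit of 1.5 and leaving out arrays. Sequences were not used here.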

Additional observations from a re-analysis of the deposited data

Results flagged for a closer look

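SEC23IP was set apart because its response to TGF-β1 at 24 h differed from that at 8 h. The difference was -0.43 on the log2 scale (adjusted p = 0.228 without the block and 0.0460 with replicate number as a block in the 9 P2 arrays), and it was negative in all 3 same-numbered pairs. In a scan of all 58 genes, COPZ2, the second ζ subunit of COPI, was also set apart. Every same-numbered pair was lower than untreated at 8 h and higher at 24 h. Its replicate 3 difference at 8 h (-0.0014) and replicate 2 difference at 24 h (0.017) were far smaller than its limma SE of 0.153. The 24 h minus 8 h difference was 0.22, and the change of direction was not tested. The log2 fold changes of COPZ2 were -0.07 at 8 h (adjusted p = 0.898) and 0.15 at 24 h (adjusted p = 0.618), neither of them called.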

How the results depend on the processing

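Of the results for named genes under the alternatives, 765 kept their direction and their side of the threshold. Another 95 kept the direction and lost the call, 11 gained a call and 0 reversed. This total pools all comparisons, and genes called with genes not called in the main fit, so it does not measure how stable the TGF-β1 calls were. With each array left out in turn, 17 of 20 named culture calls held in every fit, against 1 of 6 at 8 h and 4 of 10 at 24 h. In culture the 37 calls became 23 with a limit of 1.5-fold added, and the median log2 fold change of 0.21 became 0.32 with a filter at log2 6, 0.13 after median centring and 0.33 with each gene's most variable probe set. At 8 h the 6 calls became 3 when only the 6 arrays compared were fitted, 3 with the 1.5-fold limit, 11 with a trended robust prior, 14 with the replicate block, 1 with the P2 arrays numbered 3 left out, and 2 with the replicate block on the P2 arrays numbered 1 and 2 (an alternative chosen after seeing the data). At 24 h the 10 calls became 5 with only the 6 arrays, 5 with the 1.5-fold limit, 25 with the replicate block, 3 without the P2 arrays numbered 3 and 16 with the most variable probe set. Between 24 h and 8 h the 0 calls became 1 with the replicate block. Leaving out 1 array gave 31 to 36 calls in culture, 1 to 4 at 8 h and 4 to 9 at 24 h. The lowest counts came without 8 h replicate 1 or 2 or untreated replicate 1 or 3 at 8 h (1 each), and without untreated replicate 3 at 24 h (4). Some of these fits had fewer arrays than the main fit, and the cause of the changed counts was not tested. With 3 arrays a group, changes near the median SE of 0.159 could not be called, and probe sets near the reporter controls, as those of COPB2 and LMAN2L, carry little signal over background.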
